A study of Mus musculus with 6 samples.

Results

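The microglial identity genes described here code for proteins of the cell surface or for secreted proteins: Tmem119, Fcrls, Siglech, Csf1r, Olfml3, Sparc, Slc2a5, Selplg, Adgrg1 and Ecscr. They were chosen by name, and all 10 of 10 had a probe set among the 19505 named genes of the array, each of them 1 probe set. The samples were brain microglia of female C57BL/6 mice taken at the peak of EAE (experimental autoimmune encephalomyelitis), which models multiple sclerosis in mice. Every mouse had been immunized with recombinant myelin oligodendrocyte glycoprotein in IFA and given pertussis toxin. The 3 control samples and the 3 conditional knock-out (CKO) samples differed by a B cell conditional knock-out, which the series title ties to B cells that express the cytokine GM-CSF; the labels do not state which gene was deleted, which Cre was used, how old the mice were or how the cells were isolated. Whether each replicate came from its own animals is not said in the labels, so a p-value reflects the spread among these 6 samples alone, which may be technical.

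Microglia are the resident macrophages of the brain. In healthy tissue they carry a set of transcripts that other macrophages hold at low levels, and this set depends on signals of their surroundings such as TGF-beta and the ligands of CSF1R. Several of these genes are known to go down when microglia respond to injury or inflammation, and Tmem119 is widely used to tell microglia from macrophages that enter from the blood. Some of the 10 genes are not limited to microglia: Csf1r marks most macrophages, Selplg most leukocytes, Siglech also plasmacytoid dendritic cells, Sparc and Ecscr also endothelium, and Adgrg1 also neural precursors and some lymphocytes.

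The identity genes were bright in all 6 samples, and no group difference among them passed the test. By mean, 9 of the 10 were higher in CKO and Tmem119 was lower, with a median log2 difference of 0.26 (CKO minus control), but 0 passed an adjusted p of 0.05 in the limma fit over all 22206 probe sets, and 1 (Fcrls) had an unadjusted p under 0.05. In that fit 0.00901% of all probe sets passed, 2 in number and both lower in CKO; 788 higher and 1409 lower probe sets had an unadjusted p under 0.05. Over all probe sets the median difference was 0.06 and 55.5% had a higher mean in CKO, against 44.9% after each array was centred on its median. The same centring left 6 of the 10 identity genes higher. Fcrls alone had every CKO sample above every control sample, which 5.94% of all probe sets had.

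The arrays themselves differed within the groups, and so did the identity genes. CKO replicate 1 had the highest value of the 6 arrays for 9 of the 10 genes, as did 18.8% of all probe sets, and control replicate 3 had the lowest for 6, as did 16.7% of all probe sets. The mean deviation of the 10 genes from their own 6-array means was 0.66 on CKO replicate 1 and -0.54 on control replicate 3. Over all probe sets it was -0.02 and -0.03. For astrocyte markers it was 2.40 and -1.21 on these arrays, and for T cell markers -1.70 and 1.97. The interquartile range of all values was 3.08 and 3.11 on CKO replicates 2 and 3 and 3.66 to 4.0 on the other arrays. The part of these features in the results was not tested. Without CKO replicate 1, 6 of the 10 genes were higher, and without control replicate 3, 5 were.

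**Figure D1:**
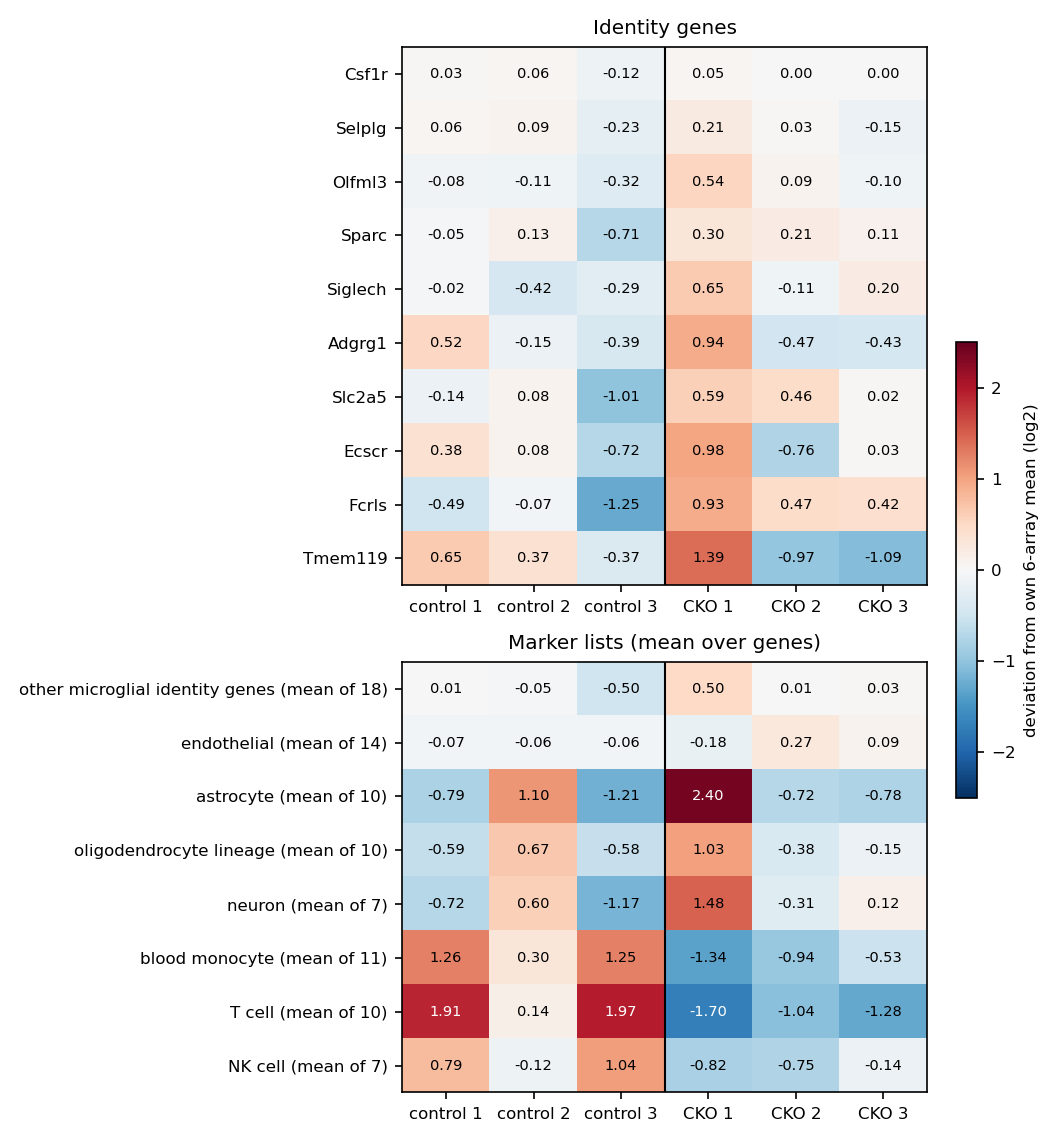
Deviation of each identity gene (top) and mean deviation of each marker list (bottom) from its own mean over the 6 arrays, in log2 units, with replicates 1 to 3 of each group in columns. CKO replicate 1 is high for the identity genes (1.39 for Tmem119) and for astrocyte markers (2.40), and Tmem119 is low on CKO replicates 2 and 3 (-0.97 and -1.09).

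Reference promoter sequence shows what the microglial genes carry at their start sites. RefSeq promoter windows (GRCm38.p6, 250 bases before to 50 after the start) were found for 6 of the 10 genes. They were searched on both strands for GAGGAA, the core bound by the macrophage factor PU.1, for CAGACA, the element bound by SMAD proteins that act downstream of TGF-beta, and for TGANTCA, the AP-1 element; no matches overlapped in the windows of these genes. Windows are shown for 3 genes, from chr3:87263475-87263774 (minus strand, Fcrls), chr7:55767934-55768233 (plus strand, Siglech) and chr11:55420031-55420330 (minus strand, Sparc). All genes with a window had higher CKO means, and Fcrls had the greatest difference. Every window with GAGGAA is among those shown. The windows of Slc2a5, Adgrg1 and Olfml3 are not shown, and that of Olfml3 held none of these elements. Capitals mark GAGGAA and CAGACA or their reverse complements.
Fcrls: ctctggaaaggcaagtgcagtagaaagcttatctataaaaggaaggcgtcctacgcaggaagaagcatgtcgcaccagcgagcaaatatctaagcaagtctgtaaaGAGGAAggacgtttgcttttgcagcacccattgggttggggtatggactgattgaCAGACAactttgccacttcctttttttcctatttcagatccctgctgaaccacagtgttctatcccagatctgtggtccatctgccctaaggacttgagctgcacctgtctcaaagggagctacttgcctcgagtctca
Siglech: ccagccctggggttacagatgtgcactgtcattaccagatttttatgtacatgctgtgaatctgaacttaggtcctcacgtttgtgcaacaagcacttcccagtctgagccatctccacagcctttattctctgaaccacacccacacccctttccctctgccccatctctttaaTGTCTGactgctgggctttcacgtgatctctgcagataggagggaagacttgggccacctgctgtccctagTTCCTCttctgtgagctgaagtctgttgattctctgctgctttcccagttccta
Sparc: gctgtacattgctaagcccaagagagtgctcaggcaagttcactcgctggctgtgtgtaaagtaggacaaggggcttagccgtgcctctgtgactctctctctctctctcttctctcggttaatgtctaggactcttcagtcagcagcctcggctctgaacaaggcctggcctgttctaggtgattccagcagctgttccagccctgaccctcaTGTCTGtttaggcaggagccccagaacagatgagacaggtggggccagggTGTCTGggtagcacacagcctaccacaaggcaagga

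The windows of Fcrls and Siglech each held 1 GAGGAA and 1 CAGACA match. In Fcrls the leftmost bases were at -144 and -89 from the start, and in Siglech at -4 and -75. The Sparc window held 2 CAGACA matches, at -36 and 15, and no GAGGAA. Over the 7 windows of the identity genes (Adgrg1 has a window for each of its start sites), 2 held GAGGAA, 5 CAGACA and 1 TGANTCA. Of all 32851 promoter windows, 28.3%, 21.0% and 7.81% held them. The motifs were chosen after their matches were seen, so these shares do not test enrichment. A match is a description of the letters and not a binding site.

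Fcrls, a scavenger receptor-like protein related to Fc receptors and found on mouse microglia, had the greatest group difference of the 10. Its log2 values were 17.40, 17.82 and 16.64 in the controls and 18.82, 18.36 and 18.31 in CKO, in the order of replicates 1, 2 and 3 here and below. The CKO samples were all above the controls, and the controls spread more widely, with replicate 3 lowest. The difference was 1.21 (SE 0.36, 2.31-fold), with a 95% interval of 0.39 to 2.03 and an adjusted p of 0.312. It ranged from 0.72 to 1.48 over the settings tried and passed in 1 of them, without CKO replicate 1 and control replicate 2 together (1.31, adjusted p = 0.0415), where 5.05% of all probe sets passed as higher. That setting leaves the 2 narrow-range arrays as the CKO group.

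Slc2a5 and Siglech came next in size among the surface genes. Slc2a5, the fructose transporter GLUT5, which in brain is largely found on microglia, was at 15.24, 15.46 and 14.37 in the controls and 15.97, 15.84 and 15.40 in CKO. The groups overlapped by 1 CKO sample, and control replicate 3 was low again. Its difference was 0.71 (SE 0.36, 95% interval -0.10 to 1.53, adjusted p = 0.542), and 0.39 without control replicate 3. Siglech is a receptor of the sialic acid-binding lectin family and signals through the adaptor TYROBP. It was at 15.89, 15.49 and 15.62 in the controls and 16.56, 15.80 and 16.11 in CKO. CKO replicate 2 lay below control replicate 1, so the groups overlapped. The difference was 0.49 (SE 0.30, 95% interval -0.19 to 1.17, adjusted p = 0.599), and it was 0.29 without CKO replicate 1 and 0.79 under quantile normalization.

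Siglech transcript is also known from plasmacytoid dendritic cells. Of 8 markers of those cells, 4 had higher and 4 lower CKO means, 0 passed, and their mean level was 8.23 to 8.98 in controls and 8.11 to 8.53 in CKO. Of these, Ccr9, a chemokine receptor with the smallest p of the list, was at 6.25, 6.18 and 6.91 in controls and 5.14, 4.76 and 5.25 in CKO. Smim5 went the other way by mean, with a difference of 0.35 (adjusted p = 0.787). Tcf4, at 14.92 to 16.43 over the 6 arrays, lifted the mean level of the list. The other markers lay between 4.76 and 10.66, around the array medians of 7.13 to 7.34. The part of these cells in Siglech was not tested.

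Tmem119, a transmembrane protein used as a marker of resident microglia, went the other way by mean and had the widest range of the 10, 2.48 over the 6 arrays. It was at 14.03, 13.75 and 13.01 in controls and at 14.77, 12.41 and 12.29 in CKO. CKO replicate 1 was above all controls, and CKO replicates 2 and 3 were below all of them. The group difference was -0.44 (SE 0.64, 95% interval -1.91 to 1.03, adjusted p = 0.820), so neither direction was established. The difference was -0.07 without CKO replicate 2 and -0.01 without CKO replicate 3. Without CKO replicate 1 it was -1.25 (adjusted p = 0.0544), a setting in which 4.94% of all probe sets passed as lower. Without CKO replicate 1 and control replicate 3 it was -1.54 (adjusted p = 0.0362, 2.17% of all probe sets lower). In both settings without CKO replicate 1, CKO is represented by the pair of narrow-range arrays, and the genotype and the array range cannot be told apart. Under quantile normalization, which gives all arrays the same distribution, the difference over all 6 arrays was -0.15. It was -0.16 under cyclic loess and -0.56 after median centring. With array weights it was -1.15 (adjusted p = 0.114), where 4.76% of all probe sets passed as lower.

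Adgrg1 had a pattern of the same kind over a smaller range, and Ecscr in part. Adgrg1, an adhesion G protein-coupled receptor (GPR56), was at 14.75, 14.08 and 13.84 in controls and 15.17, 13.76 and 13.80 in CKO. CKO replicate 1 was highest and the other CKO samples lowest, and the group means differed by 0.02 (SE 0.44, 95% interval -1.0 to 1.04, adjusted p = 0.991). Without CKO replicate 1 the difference was -0.44 (adjusted p = 0.407). Ecscr, a surface glycoprotein first described in endothelium, was the dimmest of the 10, at 10.81, 10.51 and 9.71 in controls and 11.41, 9.67 and 10.46 in CKO. CKO replicate 1 was highest and CKO replicate 2 lowest, with a difference of 0.17 (SE 0.48, 95% interval -0.93 to 1.27, adjusted p = 0.915).

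Ecscr and Sparc are also known from endothelium, and its markers are set beside them. Of 14 endothelial markers, 9 had higher and 5 lower CKO means and 0 passed, and their mean level was 6.25 to 6.27 in controls and 6.15 to 6.60 in CKO, below the array medians of 7.13 to 7.34. Single markers ranged around the medians: Kdr, a receptor for VEGF, was between 7.15 and 8.50 and differed by -0.86 (adjusted p = 0.423), and Slco1a4, a transporter of brain endothelium, was between 7.51 and 9.38 and differed by 0.90 (adjusted p = 0.477). The mean deviation of the list was -0.18 on CKO replicate 1 and 0.27 on CKO replicate 2. The part of endothelial cells in Ecscr and Sparc was not tested.

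Csf1r and Selplg showed the smallest ranges. Csf1r, the receptor kinase that microglia need for survival, was at 19.69, 19.72 and 19.54 in controls and 19.71, 19.66 and 19.66 in CKO. All 6 samples lay within 0.18 of each other, and the difference was 0.03 (SE 0.25, 95% interval -0.54 to 0.59, adjusted p = 0.976). Selplg, the P-selectin ligand PSGL-1 through which leukocytes roll on vessel walls, was at 19.37, 19.40 and 19.09 in controls and 19.53, 19.34 and 19.16 in CKO. The groups overlapped, with a difference of 0.06 (SE 0.26, 95% interval -0.55 to 0.66, adjusted p = 0.952). Both genes lay within 1 log2 unit of the highest value on every array (19.70 to 19.93), where signal may be saturated, so a difference at this level may be understated; this was not tested.

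Markers of other cells that express Csf1r or Selplg are set beside them. Blood monocyte markers were lower in CKO in 11 of 11 genes, by a median of -2.01, at a mean level of 12.60 to 13.55 in controls and 10.95 to 11.76 in CKO; 0 passed. T cell markers were lower in 10 of 10 genes, by a median of -2.54, at a mean level of 8.60 to 10.43 in controls and 6.76 to 7.42 in CKO; 0 passed. Of these, Fn1 (fibronectin) and Cd3d of the T cell receptor complex had the smallest p of their lists, with differences of -2.48 and -3.10, both at adjusted p = 0.0745. In an isolate, fewer cells of a type and less RNA per cell cannot be told apart. Without CKO replicate 1, 7 of the 11 monocyte and 7 of the 10 T cell markers passed as lower, against 4.94% of all probe sets. Without control replicate 2, 3 and 6 did, against 0.563%. Neutrophil markers differed less, with 5 of 7 genes lower, 2 higher and a median of -0.36, and 0 passed. Their mean level was 15.47 to 15.99 in controls and 15.08 to 15.49 in CKO. The part of all these cells in the levels of Csf1r and Selplg was not tested.

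Tmem119 and Selplg are neighbours in the mouse gene table (GRCm38.p6), with 0 protein-coding genes between them. The log2 distance of Selplg from Tmem119 within an array was 5.34, 5.65 and 6.08 in controls and 4.76, 6.93 and 6.87 in CKO. Its group difference was 0.50 (exact two-sided permutation test over 20 splits, p = 0.6). Selplg lay close to the top of the scale, where a difference may be understated. Against Fcrls, which lay 1.11 to 3.17 below the highest value of each array, the log2 distance from Tmem119 within an array was 3.37, 4.07 and 3.63 in controls and 4.05, 5.95 and 6.02 in CKO. CKO replicates 2 and 3 stood apart there, and CKO replicate 1 lay among the controls. The mean distance was 3.69 ± 0.35 (SD, n = 3) in controls and 5.34 ± 1.12 in CKO, with a group difference of 1.65. An exact two-sided permutation test over 20 splits gave p = 0.2, where 0.1 is the smallest p that 3 against 3 samples allow. Fcrls had the greatest group difference of the identity genes (1.21), and Tmem119 was the only one with a lower CKO mean (-0.44). The test on this pair was therefore not independent of the values, and no conclusion is drawn from it.

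The secreted genes, Olfml3 and Sparc, were among the brightest and ranged over 0.86 and 1.01 log2 units. Olfml3, an olfactomedin-like matrix protein secreted by microglia, was at 18.23, 18.20 and 17.99 in controls and 18.85, 18.40 and 18.21 in CKO. CKO replicate 3 lay just below control replicate 1, and the difference was 0.35 (SE 0.28, 95% interval -0.30 to 0.99, adjusted p = 0.678), or 0.17 without CKO replicate 1. Sparc, a matricellular protein that binds collagen and calcium, was at 19.35, 19.53 and 18.69 in controls and 19.70, 19.61 and 19.51 in CKO. Control replicate 3 was the low sample, and CKO replicate 3 lay just below control replicate 2. The difference was 0.42 (SE 0.30, 95% interval -0.28 to 1.11, adjusted p = 0.646), and 0.17 without control replicate 3. Sparc was 0.11 to 1.12 below the highest value of each array, so the limit named for Csf1r holds for it too.

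**Figure D2:**
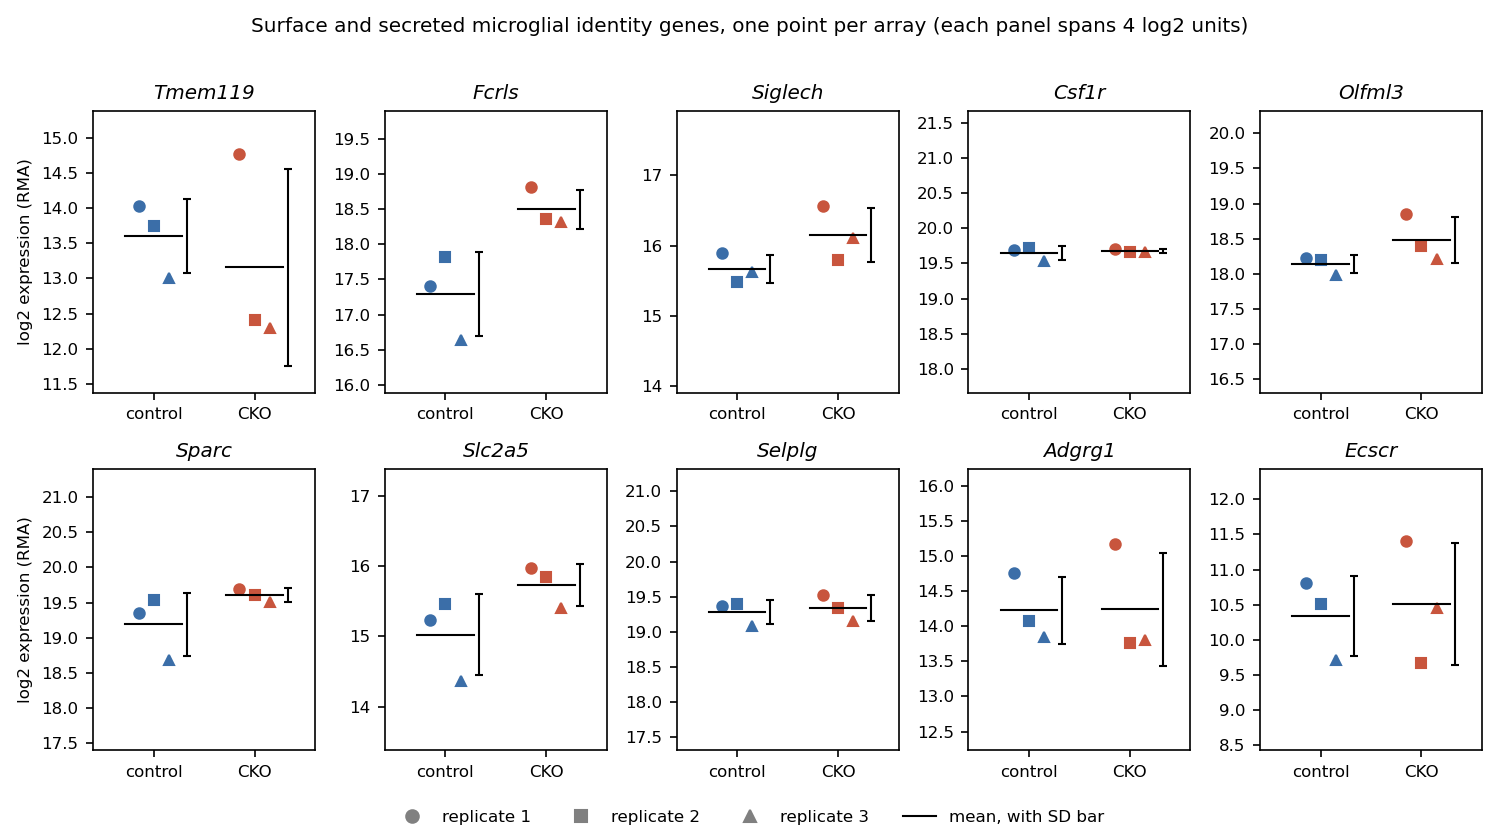
Deposited log2 value of each of the 10 identity genes on each array, by group, with the mean as a line and the SD as a bar (n = 3), and the replicate as the symbol. Fcrls has all CKO samples (18.31 to 18.82) above all control samples (16.64 to 17.82), and Tmem119 has CKO replicate 1 at 14.77 and CKO replicates 2 and 3 at 12.41 and 12.29.

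The size of a difference and its interval depended on the gene. The widest 95% interval was that of Tmem119 and the narrowest that of Csf1r. Intervals of 9 genes included 0, and that of Fcrls did not, without adjustment for the number of probe sets. An interval that includes 0 does not show that the groups were alike: for Slc2a5 it reached 1.53 upward and for Tmem119 -1.91 downward.

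**Figure D3:**
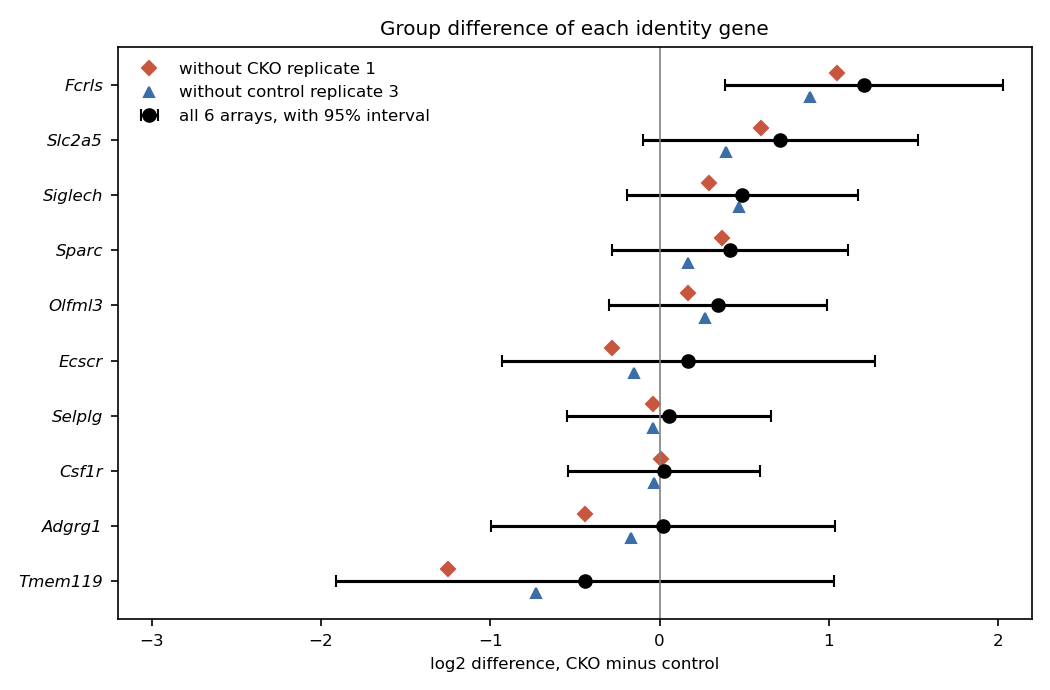
Group difference of each identity gene (log2, CKO minus control), with its 95% interval in black from all 6 arrays (limma), and the difference without CKO replicate 1 or without control replicate 3 as coloured symbols. Fcrls is at 1.21 and stays above 0 in both, and Tmem119 is at -0.44 and moves to -1.25 without CKO replicate 1. Selplg, Adgrg1 and Ecscr change sign in both, and Csf1r does so without control replicate 3 (-0.03).

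The ligands and partners of these proteins were on balance lower in CKO, and none passed. Of 17 measured genes 4 were higher and 13 lower, with a median of -0.34; after quantile normalization 7 were higher and the median was -0.11. Csf1, a ligand of CSF1R that many cell types make, was at 11.55, 11.81 and 13.12 in controls and 11.06, 10.37 and 10.39 in CKO. All CKO samples were below all controls, as for 8.48% of all probe sets. The difference was -1.55 (SE 0.44, 95% interval -2.57 to -0.54, adjusted p = 0.282). Leaving out control replicate 3 gave -1.07. Leaving out CKO replicate 1 gave a call (-1.78, adjusted p = 0.0424), in a setting where 4.94% of all probe sets passed as lower. Il34, the other ligand of CSF1R, which neurons make in brain, was at 6.06, 6.61 and 6.42 in controls and 6.65, 6.83 and 6.85 in CKO. The CKO samples were just above the controls, as for 5.94% of all probe sets. All values were below the array medians, with a difference of 0.41 (SE 0.27, adjusted p = 0.621).

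Tyrobp and Hcst encode membrane adaptors of surface receptors, the first of them the partner of Siglech. Tyrobp was at 15.15, 14.89 and 14.91 in controls and 14.69, 14.10 and 14.16 in CKO. No CKO sample reached the controls, as for 8.48% of all probe sets. The difference was -0.67 (SE 0.28, adjusted p = 0.495), and -0.38 after quantile normalization. Hcst was at 7.46, 7.17 and 6.43 in controls and 5.99, 6.25 and 6.23 in CKO, with a difference of -0.86 (SE 0.33, adjusted p = 0.444). Both adaptors are also expressed by monocytes and NK cells. NK cell markers were lower in 7 of 7 genes, with a mean level of 7.35 to 8.52 in controls and 6.66 to 7.34 in CKO, and 0 passed. Tgm2, a transglutaminase that binds the ADGRG1 receptor, differed by -0.90 (adjusted p = 0.542), and Sele and Selp, the selectins of activated endothelium, were at 3.32 to 5.55 on all arrays, toward the lowest values of the table.

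**Figure D4:**
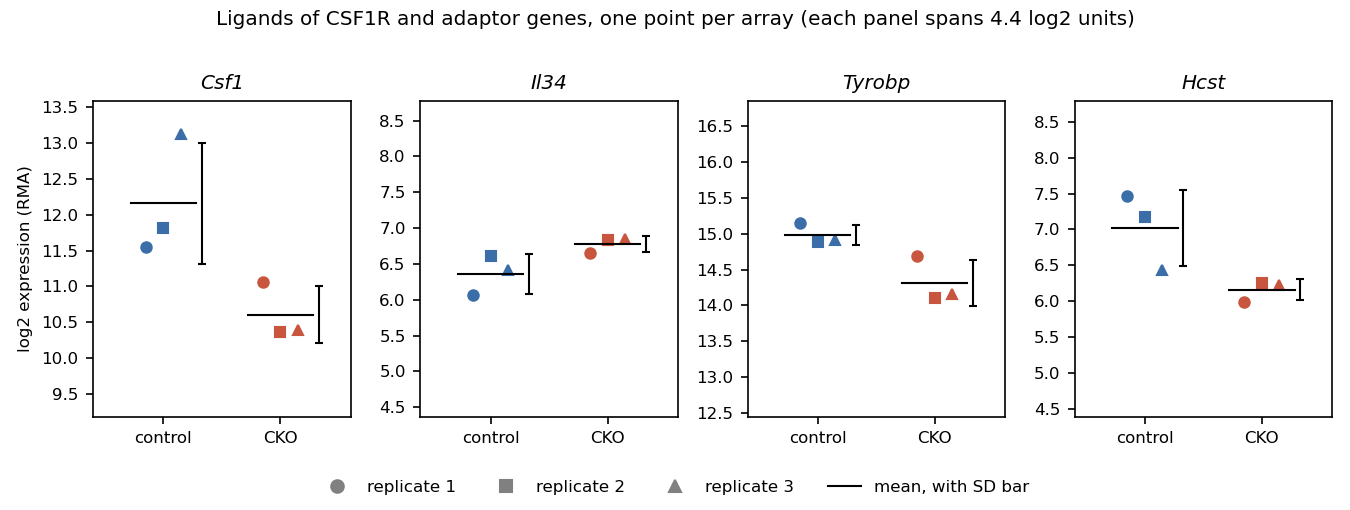
Deposited log2 values of the CSF1R ligands Csf1 and Il34 and the adaptor genes Tyrobp and Hcst on each array, by group, with mean and SD (n = 3). Csf1 has CKO samples at 10.37 to 11.06 and control samples at 11.55 to 13.12, and Il34 lies between 6.06 and 6.85.

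Relatives of the identity genes were mixed in direction. None of the 33 measured relatives passed, with 17 higher, 16 lower and a median of 0.04. Without CKO replicate 1, 4 passed as lower, where 4.94% of all probe sets did. That setting leaves the narrow-range arrays as the CKO group. The 6 listed genes of the sialic acid lectin family besides Siglech, which are not the whole family, were lower in CKO, by -1.45 to -0.18. This held after median centring, quantile normalization and cyclic loess. Without CKO replicate 1 the count was 5 of 6, with differences down to -1.72. In that setting 3 of the 6 passed, where 4.94% of all probe sets passed as lower. Siglec1, a lectin of macrophages induced by interferon, was at 7.81, 7.69 and 8.06 in controls and 6.43, 6.44 and 6.34 in CKO. All CKO samples were below all controls, as for 8.48% of all probe sets. The difference was -1.45 (SE 0.26, adjusted p = 0.108). Siglecf was at 10.35, 9.42 and 10.60 in controls and 9.37, 8.63 and 8.17 in CKO, with a difference of -1.40 (adjusted p = 0.320).

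Of 8 hexose transporters besides Slc2a5, 6 were lower. Slc2a1, the glucose transporter GLUT1, was at 13.16, 12.66 and 13.32 in controls and 12.54, 11.15 and 10.92 in CKO. The CKO samples were below the controls, as for 8.48% of all probe sets, with a difference of -1.51 (SE 0.45, adjusted p = 0.311). All 7 members of the SPARC family besides Sparc were higher by mean, but quantile normalization left 5 and cyclic loess 4 of them higher. Sparcl1, which astrocytes express strongly, was at 13.80, 17.04 and 12.53 in controls and 18.48, 14.42 and 14.17 in CKO. It was highest on CKO replicate 1 and control replicate 2, the arrays on which astrocyte markers were also highest.

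Other microglial identity genes were also mostly higher by mean in CKO. Of 18 measured genes 14 were higher and 4 lower in CKO, with a median of 0.31, and 0 passed. The count of higher genes was 11 of 18 without CKO replicate 1 and 12 of 18 without control replicate 3. It was 17 of 18 under quantile normalization and 11 of 18 after median centring. Without CKO replicate 1, 0 passed as higher and 1 as lower, where 4.94% of all probe sets passed as lower. Array weights gave the same calls (4.76%), as did leaving out CKO replicate 1 with control replicate 2 (6.28%). P2ry12, a purinergic receptor of resting microglia, was at 19.31, 19.35 and 18.76 in controls and 19.65, 19.72 and 19.70 in CKO (difference 0.55, adjusted p = 0.543). Gpr34, a lysophospholipid receptor, was at 17.89, 17.92 and 17.14 in controls and 18.59, 18.56 and 18.46 in CKO (difference 0.89, adjusted p = 0.383). Both had all CKO samples above all controls, as did 5.94% of all probe sets, and control replicate 3 lowest. P2ry12 was at the highest value of the array on CKO replicates 2 and 3, so the saturation limit holds for it too. Gpr165, Arhgap5 and Golm1 differed by 1.97, 0.94 and 0.90, at adjusted p of 0.282, 0.347 and 0.418. Crybb1, a crystallin gene expressed by microglia and chosen here after its values were seen, differed by -0.93, from 14.35, 13.59 and 14.06 in controls to 14.32, 12.81 and 12.07 in CKO, with CKO replicates 2 and 3 low as for Tmem119.

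Genes with the nearest array pattern were sought for 4 of the 10 among 17035 named genes, by the root mean square difference of deviations over the 6 arrays. For Tmem119 these were Cox6b1, a subunit of cytochrome c oxidase (0.151), Epn1, an endocytic adaptor (0.180), and Hadh, a mitochondrial enzyme of fatty acid oxidation (0.195). Cox6b1 was at 11.80, 11.99 and 11.06 in controls and 12.76, 10.27 and 10.36 in CKO, high on CKO replicate 1 and low on the other CKO samples. For Sparc they were Zfp120 (0.035), Hunk (0.0565) and Drc1 (0.0622), for Siglech Egfem1 (0.0631), Col15a1 (0.0848) and Ipo13 (0.092), and for Csf1r Lgmn, the lysosomal protease legumain (0.0359), Tsn (0.0372) and Nrm (0.0383). Among the 10 genes themselves the closest pair was Csf1r and Selplg (0.103) and the most distant was Tmem119 and Fcrls (1.07). With 6 arrays and this many genes, near patterns are easily found, and they are given as a description.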

How the data were processed

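Per the labels' protocols, RNA was isolated with TRIzol and labelled as biotinylated cDNA for Affymetrix whole-transcript arrays. The authors deposited 1 log2 value per probe set and array, made with RMA per the submitters' processing notes; its settings and the genome build are not stated in the labels, and the log2 scale was inferred from the range of the values. Of 22206 probe sets, 19572 named 1 gene, 0 several and 2634 none in the platform annotation, and 0 symbols changed through Entrez numbers. The probe set with the highest mean stood for a gene. The fit used lmFit and eBayes of limma 3.58.1 (R 4.3.3) without covariates; p-values were two-sided, adjusted by Benjamini-Hochberg over the whole table, and called at 0.05. The fit was tested on simulated data. Precision is limited by the number of arrays.

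The members and lists were chosen with earlier results of these data known, and the promoter motifs after their matches were seen. Lists were counted, not tested. Beside all 10 members, the rule named up to 4 genes with the smallest p per list. It also named Csf1, Il34, Tyrobp, P2ry12 and 3 nearest patterns for each of 4 members. Not every gene the rule allows is printed, and Sele, Selp, Sparcl1, Crybb1 and Tcf4 were chosen outside it after their values were seen. Further marker lists covered oligodendrocyte lineage, neurons, pericytes with fibroblasts, neutrophils and border-associated macrophages. Their median differences were 0.45, 0.73, 0.13, -0.36 and -0.45, the astrocyte median was 0.58, the NK cell median -0.88, the endothelial median 0.24 and the plasmacytoid median -0.07, with 0 genes called. Some listed genes are not reported here.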

Additional observations from a re-analysis of the deposited data

How the results depend on the processing

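With 3 arrays a group, of the 10 identity genes 0 passed in the fit over all arrays, under any rescaling, filter or other variance model tried, at an adjusted p of 0.1, or without any 1 array. Without CKO replicate 1 and control replicate 2 together, 1 passed as higher (Fcrls), and without CKO replicate 1 and control replicate 3, a setting chosen after seeing the data, 1 passed as lower (Tmem119); the cause was not tested. Their median difference of 0.26 ranged from 0.07 to 0.40 with each array left out. It was 0.13 after median centring, 0.34 under quantile normalization, 0.45 under cyclic loess and 0.09 with array weights, and it was 0.12 and 0.02 with CKO replicate 1 left out together with control replicate 2 or 3. Array weights also gave lower calls for 9 T cell, 9 monocyte and 2 NK cell markers, 3 relatives and 1 other microglial identity gene. The oligodendrocyte lineage, plasmacytoid and neutrophil lists each had 1 lower call. Of the border-associated macrophage markers 1 passed as higher and 1 as lower. With array weights 2.87% of all probe sets passed as higher and 4.76% as lower. In each of the settings without a pair of arrays, 3 relatives passed as lower. The shares of all probe sets there were 6.28% with control replicate 2 left out and 2.17% with control replicate 3 left out.

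With 1 array left out, Csf1r ranged from -0.03 to 0.06, Selplg from -0.04 to 0.15, Adgrg1 from -0.44 to 0.28 and Ecscr from -0.28 to 0.59, so each changed sign. Among these, Adgrg1 was -0.05 without control replicate 2 and -0.17 without control replicate 3, and Ecscr was -0.15 without control replicate 3. Csf1r became -0.10 after median centring and -0.04 without CKO replicate 1 and control replicate 3. Selplg became -0.07 after median centring, -0.04 with array weights and -0.13 without CKO replicate 1 and control replicate 3. Adgrg1 became -0.10 after median centring, -0.47 with array weights, -0.52 without CKO replicate 1 and control replicate 2, and -0.63 without CKO replicate 1 and control replicate 3. Ecscr became -0.23 with array weights, -0.20 without CKO replicate 1 and control replicate 2, and -0.59 without CKO replicate 1 and control replicate 3. The other 6 genes kept their direction in every setting tried. For Tmem119 the difference came to -0.07 without CKO replicate 2 and -0.01 without CKO replicate 3.

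Over all probe sets, 2 passed as lower. This was 1 under quantile normalization and with the dimmest 20% or 50% left out, 4 with a trended robust fit, 44 at an adjusted p of 0.1, and 0 with the replicate number as a block. Array weights gave 637 higher and 1057 lower calls. Leaving out CKO replicate 1 gave 1121 and 1395 together with control replicate 2, and 663 and 481 together with control replicate 3. With 1 array left out, 0 to 1113 were higher and 0 to 1096 lower, the most without CKO replicate 1. The numbers of the replicates do not pair the samples by the labels, and same-numbered deviations correlated at -0.01, -0.23 and 0.25; the replicate block changed no call among the 10 genes (lowest adjusted p 0.34, Fcrls). Median centring moved the median of all probe sets from 0.06 to -0.06.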
